A study of Mus musculus with 16 samples.

Results

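The 6 genes described here encode histone acetyltransferases: Hat1, Kat2a (GCN5), Kat2b (PCAF), Kat5 (TIP60), Ep300 (p300) and Crebbp (CBP). They were found by name among the 24354 gene rows of each deposited table, and all 6 had a row and were tested by the authors in both tables. The RNA came from the quadriceps of C57BL/6 mice, all male and 4 months old. Group by group, 3 libraries came from HDAC3-KO mice at rest, 3 from wild-type mice at rest, 3 from HDAC3-KO mice after treadmill running and 3 from wild-type mice after treadmill running. The running mice completed 3 bouts of 1 h at 10 m/min with 1 h of rest between bouts, and their muscle was collected 2 h after the final bout. The labels gave neither the Hdac3 allele nor the promoter or cell type that drove its deletion, and did not say that the libraries of a group came from separate animals, so the spread between libraries may be technical. The genes were chosen by name with their measured FPKM differences between knockout and wild type, at rest and after running, already known. Those differences are therefore given as a description, without a test.

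Histone acetyltransferases move an acetyl group from acetyl-CoA to lysines of histones and other proteins, and deacetylases such as HDAC3 take it off again. HAT1 acts mainly on newly made histone H4 before the histone is placed on DNA. GCN5 and PCAF are alternative catalytic subunits of the SAGA and ATAC complexes, TIP60 is the catalytic subunit of a complex that acts in transcription and DNA repair, and p300 and CBP are large paralogous coactivators recruited by many transcription factors. In muscle, p300, CBP and PCAF are known as coactivators of the myogenic factor MyoD.

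Promoter windows are shown for Hat1 and Ep300, the member genes whose libraries separated by genotype in both tables, 1 in each direction. Each window holds the 250 bases before the annotated start, read 5′ to 3′ on the gene's strand (both +), from RefSeq on GRCm38.p6, a later build than the mm9 of the deposited values. Capitals mark matches, on either strand, to the GC box GGGCGG, the CCAAT box CCAAT, the CRE half-site TGACG, the nuclear receptor half-site AGGTCA, the E2F core GCGGGAA, the E-box CACGTG or the ETS core CGGAAG.
Hat1, chr2:71389010-71389259: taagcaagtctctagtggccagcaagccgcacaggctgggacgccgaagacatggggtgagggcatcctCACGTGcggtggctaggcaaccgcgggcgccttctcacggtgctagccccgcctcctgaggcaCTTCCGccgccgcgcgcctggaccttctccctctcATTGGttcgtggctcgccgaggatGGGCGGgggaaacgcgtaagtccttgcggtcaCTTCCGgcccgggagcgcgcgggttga
Ep300, chr15:81585964-81586213: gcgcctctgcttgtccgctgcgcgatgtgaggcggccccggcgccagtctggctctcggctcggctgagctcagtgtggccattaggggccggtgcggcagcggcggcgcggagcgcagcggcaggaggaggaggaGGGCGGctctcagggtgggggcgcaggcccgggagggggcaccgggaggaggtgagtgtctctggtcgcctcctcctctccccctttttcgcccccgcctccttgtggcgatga
The Hat1 window held 5 matches, with 1 E-box, 2 ETS cores on the opposite strand, 1 CCAAT box on the opposite strand and 1 GC box, and none of them overlapped. The Ep300 window held 1 match, a GC box. Over 32851 promoter windows of the same length, 32.7% held a GC box, 33.8% a CCAAT box, 13.6% an ETS core and 6.02% an E-box. The nuclear receptor half-site, held by 14.0% of windows, the CRE half-site, held by 17.8%, and the E2F core, held by 3.82%, had no match in either window. The GC content was 67.6% for Hat1 and 73.2% for Ep300, against a median of 52.4%.

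The deposited values are FPKM, fragments scaled by transcript length and library size, so levels can be compared between genes. FPKM summed to between 454359 and 522966 per library, and between 10137 and 10544 genes per library reached 1 FPKM. Read depth was unknown, and the spread between libraries was the only measure of error. Hdac3 measured 5.51 to 8.16 FPKM in HDAC3-KO libraries at rest, against 23.7 to 33.3 FPKM in wild type, and 4.13 to 6.37 FPKM in HDAC3-KO libraries after running, against 27.6 to 32.0 FPKM in wild type. Markers of muscle fibres dominated every library: the 9 listed, such as Ckm and Acta1, summed to 49300 to 68200 FPKM. A pair of libraries stood apart in 7 neutrophil markers, which summed to 319 FPKM in knockout library 3 after running and to 484 FPKM in wild-type library 2 at rest, against 2.1 to 13.4 FPKM in the other libraries. Without them Hat1 differences (defined with its values) were 0.95 after running and 1.14 at rest, and Ep300 differences -0.29 and -0.51. Rest and exercise stand in separate tables that were normalized separately, so genotypes were compared within a table. Values with ± are means and SDs (n = 3 libraries).

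Hat1 was the member with the largest knockout difference in both tables. At rest it measured 23.8, 23.5 and 24.4 FPKM in the HDAC3-KO libraries, against 10.6, 12.1 and 10.1 FPKM in the wild-type libraries. Each knockout library lay far above each wild-type one, and the lowest of them was 1.95 times the highest wild-type value. The means were 23.9 ± 0.432 FPKM in HDAC3-KO and 10.9 ± 1.04 FPKM in wild type, a ratio of 2.19 and a log2 difference of 1.07 (SE 0.10, on the log2(FPKM + 1) scale used for all differences here). In bulk muscle, more RNA per cell and more of the cells that hold it cannot be told apart.

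After running, Hat1 measured 24.3, 27.4 and 22.3 FPKM in HDAC3-KO, against 14.5, 11.7 and 12.5 FPKM in wild type. The groups again did not overlap, although the wild-type libraries lay somewhat higher than at rest. The means were 24.7 ± 2.60 FPKM in HDAC3-KO and 12.9 ± 1.44 FPKM in wild type, a ratio of 1.91 (log2 difference 0.88, SE 0.13). Among all tested genes, 84 of 9204 had a larger log2 difference at rest and 146 of 9037 had a larger one after running.

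The GCN5 and PCAF pair gave unlike values. Kat2b, which encodes PCAF, was the most abundant member in all 12 libraries. At rest it measured 74.1, 68.2 and 72.9 FPKM in HDAC3-KO, against 52.0, 43.0 and 43.0 FPKM in wild type. The groups did not overlap, and the means were 71.7 ± 3.14 FPKM in HDAC3-KO and 46.0 ± 5.20 FPKM in wild type (ratio 1.56, log2 difference 0.64, SE 0.11). After running Kat2b measured 49.3, 67.3 and 55.6 FPKM in HDAC3-KO, against 48.5, 44.1 and 50.7 FPKM in wild type. Here the lowest knockout library lay inside the wild-type range, and the means were 57.4 ± 9.13 FPKM in HDAC3-KO and 47.8 ± 3.38 FPKM in wild type (log2 difference 0.25, SE 0.14). The log2 knockout difference of Kat2b after running minus that at rest was -0.39 (SE 0.17). The same value was -0.18 (SE 0.16) for Hat1, -0.11 (SE 0.22) for Kat5 and 0.22 (SE 0.26) for Kat2a. It was 0.22 (SE 0.15) for Ep300 and 0.28 (SE 0.21) for Crebbp. Of the 8854 genes tested for such a change, described below, 0 were called.

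Kat2a, which encodes GCN5, was the least abundant member in every library. At rest it measured 2.89, 2.56 and 2.58 FPKM in HDAC3-KO, against 2.19, 2.09 and 3.46 FPKM in wild type. The genotypes overlapped, with the highest single value in a wild-type library (log2 difference 0.06, SE 0.18). After running it measured 3.49, 3.16 and 2.47 FPKM in HDAC3-KO, against 2.02, 3.11 and 1.95 FPKM in wild type. The means leaned higher in the knockout, 3.04 ± 0.517 FPKM in HDAC3-KO and 2.36 ± 0.654 FPKM in wild type, but the libraries overlapped (log2 difference 0.27, SE 0.19).

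Kat5, the TIP60 gene, overlapped between genotypes in both tables. At rest it measured 6.74, 7.46 and 6.86 FPKM in HDAC3-KO, against 7.54, 5.94 and 8.64 FPKM in wild type. The wild-type libraries spanned all 3 knockout values (log2 difference -0.05, SE 0.14). After running it measured 6.77, 9.27 and 9.60 FPKM in HDAC3-KO, against 10.8, 8.31 and 9.69 FPKM in wild type (log2 difference -0.16, SE 0.16).

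Ep300 was the member whose knockout libraries lay below the wild-type libraries without overlap, in both tables. At rest it measured 4.48, 4.34 and 4.20 FPKM in HDAC3-KO, against 6.16, 7.05 and 7.04 FPKM in wild type. The groups did not overlap, and the means were 4.34 ± 0.142 FPKM in HDAC3-KO and 6.75 ± 0.511 FPKM in wild type (ratio 0.643, log2 difference -0.54, SE 0.11). After running it measured 4.57, 4.09 and 4.03 FPKM in HDAC3-KO, against 4.94, 5.74 and 5.87 FPKM in wild type. The groups again stood apart, by a smaller distance, with means of 4.23 ± 0.291 FPKM in HDAC3-KO and 5.52 ± 0.503 FPKM in wild type (ratio 0.766, log2 difference -0.32, SE 0.13).

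Crebbp, the paralogue of Ep300, overlapped between genotypes. At rest it measured 5.14, 6.62 and 7.53 FPKM in HDAC3-KO, against 7.06, 8.51 and 7.34 FPKM in wild type (log2 difference -0.23, SE 0.15). After running it measured 9.23, 6.57 and 7.07 FPKM in HDAC3-KO, against 7.02, 6.91 and 7.72 FPKM in wild type (log2 difference 0.06, SE 0.15). The knockout mean was thus below the wild-type mean at rest and slightly above it after running, both within about the spread of the libraries.

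**Figure D1:**
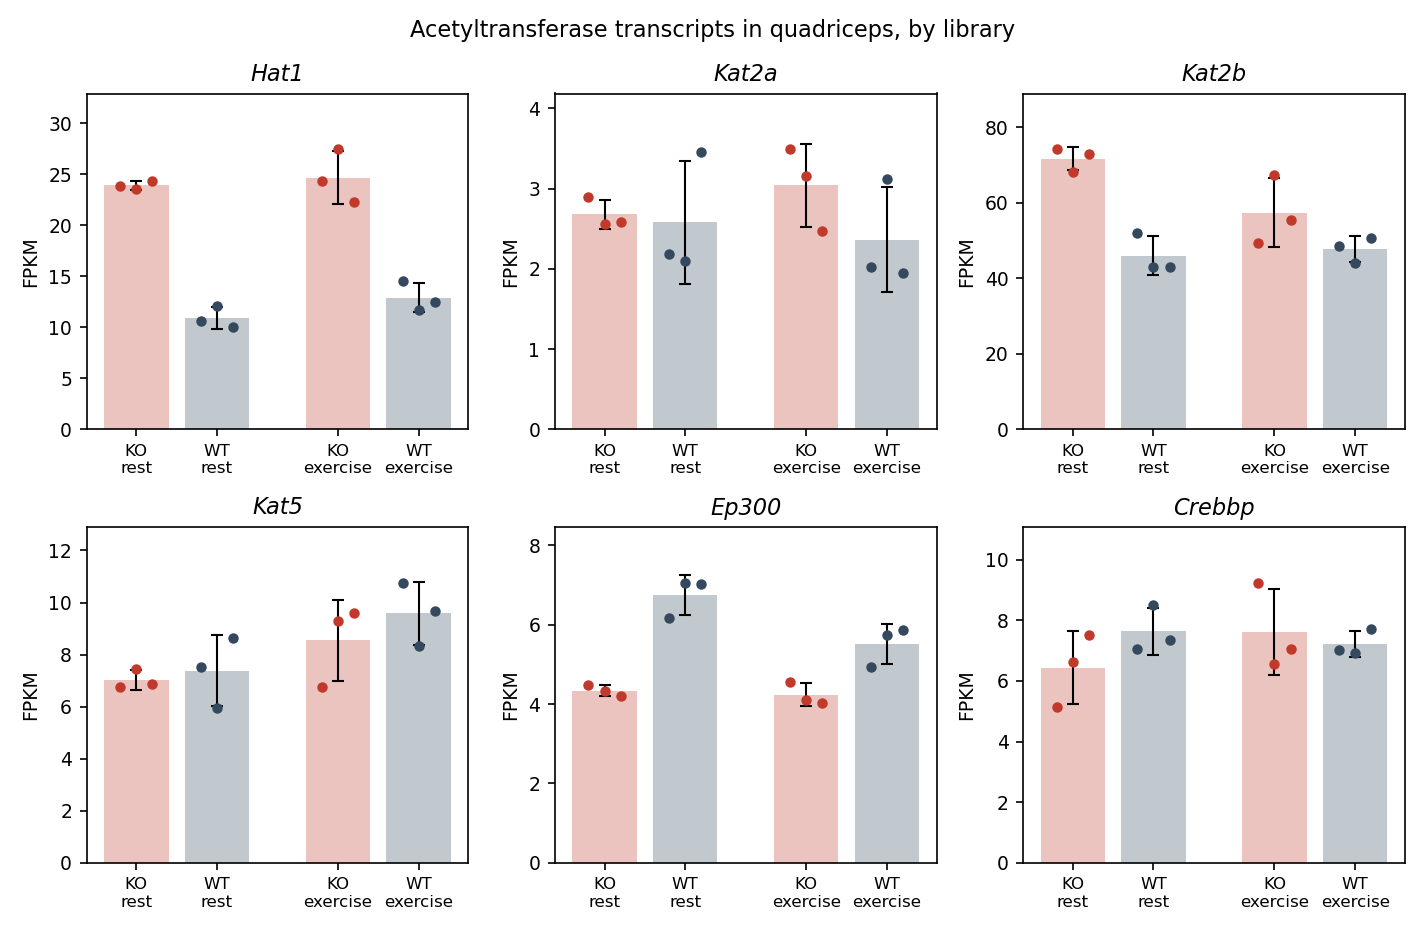
FPKM of the 6 acetyltransferase genes in HDAC3-KO (red) and wild-type (dark) libraries at rest and after exercise; points are libraries, bars are means and whiskers SDs over 3 libraries. Hat1 lay between 22.3 and 27.4 FPKM in all 6 knockout libraries and between 10.1 and 14.5 FPKM in all 6 wild-type libraries, while Kat2a, Kat5 and Crebbp overlapped between genotypes in both tables.

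By the authors' deposited table, 3 of the 6 genes had a q at or under 0.05 at rest (Hat1 and Kat2b higher, Ep300 lower) and 1 after running (Hat1 higher). Over all genes that table called 10.8% at rest (5.9% higher, 4.94% lower) and 9.57% after running (4.66% higher, 4.91% lower). Knockout and wild-type libraries stood fully apart for 3 of 6 members at rest, as they did for 28.0% of tested genes (15.6% higher, 12.4% lower), and for 2 of 6 after running, as they did for 26.1% (12.4% higher, 13.7% lower). The median log2 difference over the members was 0.00 at rest and 0.15 after running, beside 0.011 and -0.001 over all tested genes. These counts describe genes that were picked with the same differences known.

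**Figure D2:**
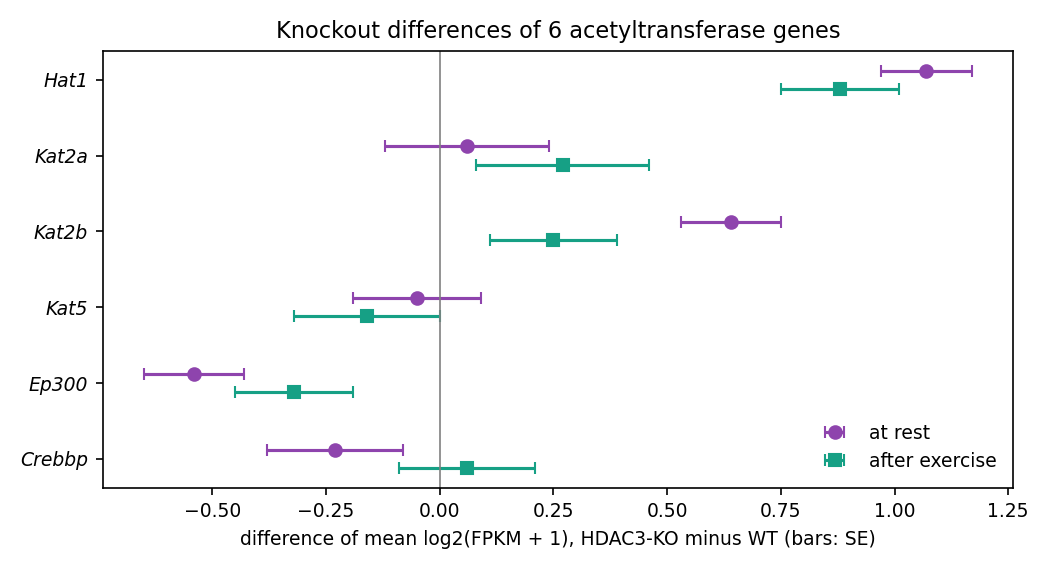
Difference of mean log2(FPKM + 1), HDAC3-KO minus wild type, for each gene at rest (circles) and after exercise (squares), with bars of 1 SE. Hat1 stood at 1.07 and 0.88, Ep300 at -0.54 and -0.32, and Kat2b at 0.64 at rest and 0.25 after exercise.

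The order of levels was nearly the same in every library. Kat2b was highest and Hat1 second in all 12, and Kat2a was lowest in all 12. Kat5, Crebbp and Ep300 lay between them, and the order of Kat5 and Crebbp changed within each group except wild type after running. In that group Kat5 (8.31 to 10.8 FPKM) lay above Crebbp (6.91 to 7.72 FPKM) in each library. Ep300 stood just above Kat2a in each library except wild-type library 2 at rest, where Kat5 did. Ranked against the genes of the same library that reached 1 FPKM, Kat2b exceeded 88.5% to 92.3% of them, and Kat2a exceeded 15.5% to 30.8%. Hat1 exceeded 80.1% to 80.2% in HDAC3-KO at rest, against 61.4% to 67.2% in wild type, and 79.5% to 82.5% in HDAC3-KO after running, against 65.5% to 69.8% in wild type.

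The summed FPKM of the 6 genes was higher in knockout muscle, and its make-up shifted toward Hat1. At rest the sum was 113 to 118 FPKM in HDAC3-KO, against 78.6 to 85.5 FPKM in wild type, and after running 97.7 to 118 FPKM in HDAC3-KO, against 79.9 to 88.4 FPKM in wild type. Kat2b was the largest part of the sum, at 61.7% ± 1.37 in HDAC3-KO and 56.5% ± 3.73 in wild type at rest. The share of Kat2b after running was 54.2% ± 3.43 in HDAC3-KO and 56.0% ± 1.24 in wild type. Hat1 made up 20.6% ± 0.30 of the sum in HDAC3-KO and 13.4% ± 1.62 in wild type at rest. After running its share was 23.4% ± 1.40 in HDAC3-KO and 15.1% ± 1.25 in wild type. The share of Ep300 was 3.74% ± 0.171 in HDAC3-KO and 8.34% ± 0.989 in wild type at rest, and 4.04% ± 0.602 and 6.49% ± 0.791 after running. A share also falls when other members are higher. That of Kat5, whose FPKM overlapped between genotypes, was 6.05% ± 0.491 in HDAC3-KO and 9.09% ± 1.69 in wild type at rest.

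Within each paralogue pair the ratio separated the genotypes in 1 condition and overlapped in the other. At rest 25.7, 26.6 and 28.2 FPKM of Kat2b were present per FPKM of Kat2a in HDAC3-KO, against 23.8, 20.5 and 12.4 in wild type. The resting groups did not overlap, but after running the ratio was 14.1, 21.3 and 22.5 in HDAC3-KO, against 24.0, 14.2 and 26.0 in wild type, with full overlap. The Ep300 to Crebbp ratio at rest was 0.871, 0.655 and 0.557 in HDAC3-KO, against 0.873, 0.828 and 0.959 in wild type, so that knockout library 1 reached the wild-type range. After running it was 0.494, 0.623 and 0.571 in HDAC3-KO, below the 0.704, 0.832 and 0.761 of wild type. These ratios are built from member values whose differences were already known. The share of other gene pairs whose ratios stand apart was not counted, so it is not known whether these separations are unusual. The sources used here do not give how the counting divided reads between paralogues.

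**Figure D3:**
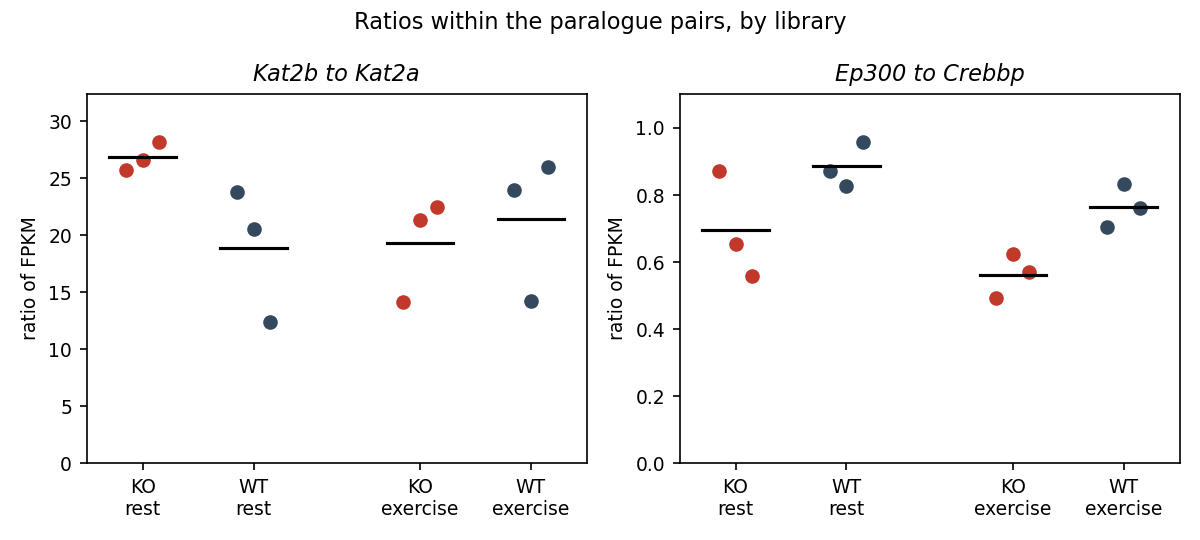
Ratio of FPKM within each library for Kat2b to Kat2a (left) and Ep300 to Crebbp (right); points are libraries and lines are group means. The Ep300 to Crebbp ratio averaged 0.563 in HDAC3-KO and 0.766 in wild type after exercise, and 0.694 in HDAC3-KO and 0.887 in wild type at rest.

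Levels after running and at rest are set side by side without a test, because the tables were scaled separately. In HDAC3-KO muscle Hat1 averaged 24.7 ± 2.60 FPKM after running and 23.9 ± 0.432 FPKM at rest, and in wild type 12.9 ± 1.44 FPKM after running and 10.9 ± 1.04 FPKM at rest, with overlapping libraries in each genotype. Kat2b averaged 57.4 ± 9.13 FPKM after running and 71.7 ± 3.14 FPKM at rest in HDAC3-KO, where the libraries did not overlap, while in wild type it averaged 47.8 ± 3.38 and 46.0 ± 5.20 FPKM. Ep300 in wild type averaged 5.52 ± 0.503 FPKM after running and 6.75 ± 0.511 FPKM at rest, without overlap, and in HDAC3-KO 4.23 ± 0.291 and 4.34 ± 0.142 FPKM. The other 3 genes overlapped between rest and running in both genotypes. The share of all genes whose libraries stood apart between rest and running was not counted. It is therefore not known whether these separations are unusual.

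A search of the 8854 genes tested in both tables gave those whose values followed Hat1 most closely over the 12 libraries, by Pearson's r on log2(FPKM + 1) centred within each table. The first were Srrm4os (r = 0.982), Arhgap10 (0.982), the phospholipase Pla2g16 (0.981), the mitochondrial DNA-binding factor Tfam (0.98) and the mitochondrial inner membrane protein Ghitm (0.978). These r values rest mainly on the step between genotypes that the libraries share. With values centred within each group instead, r was 0.86 for Arhgap10, 0.61 for Pla2g16, 0.52 for Ghitm, 0.51 for Tfam and 0.42 for Srrm4os. Srrm4os lies antisense to Srrm4, and without stated strand its reads cannot be told apart from those of Srrm4. Tfam measured 27.4 FPKM in HDAC3-KO and 15.3 FPKM in wild type at rest, and 24.0 FPKM in HDAC3-KO and 15.2 FPKM in wild type after running.

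Among the members themselves, Hat1 had an r of 0.864 with Kat2b and -0.94 with Ep300. Centred within groups these were 0.35 and -0.31. The ubiquitin ligase Nedd4 (r = 0.986) and Asnsd1 (0.975) lay closest to Kat2b, and kept 0.93 and 0.88 when centred within groups. Mfap3l (0.958) and Map3k7cl (0.953) lay closest to Ep300, with 0.60 and 0.79 when centred within groups. The autophagy gene Atg13 (0.925, and 0.92 centred within groups) and the chromatin remodeller Srcap (0.912 and 0.89) lay closest to Crebbp. Mprip (0.888 and 0.89) and Ccdc9 (0.858 and 0.84) lay closest to Kat2a, and Fuz (0.859 and 0.85) and Hint3 (0.835 and 0.82) to Kat5. These are the highest of 8854 genes over 12 libraries. How high an r such a search gives between unrelated genes was not computed, so no link is read from these values.

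Of the protein-coding genes next to the members in the RefSeq table, Dhx58 and Hspb9 beside Kat2a and Sgo1 beside Kat2b were too low for the authors' test, and none of the others was called by limma or in the authors' deposited table. Slc25a12, a mitochondrial aspartate and glutamate carrier, and Metap1d, a methionine aminopeptidase, flank Hat1. At rest Slc25a12 had a log2 difference of 0.27 (SE 0.10, limma adjusted p = 0.175) and Metap1d one of 0.31 (SE 0.12, limma adjusted p = 0.195). After running their limma adjusted p was 0.683 and 0.484. Of the neighbours of Kat2b, Pp2d1 had a log2 difference of -0.02 at rest (SE 0.22, limma adjusted p = 0.966), and Sgo1 stayed at or under 0.22 FPKM in each group mean. Beside Ep300, L3mbtl2 had a log2 difference of 0.33 at rest (SE 0.12, limma adjusted p = 0.155) and Rbx1 one of -0.08 (SE 0.10, limma adjusted p = 0.693). The pseudogenes Gm13642 and Gm6919 overlap Hat1 and Kat2b, and the snRNA gene Gm22067 overlaps Ep300. None of these had a value here, and whether any of their reads were counted with the overlapped gene is not known.

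The other genes of the acetylation machinery were listed by function, 107 in all without the members, and tested with limma on log2(FPKM + 1) across every gene the authors tested. At rest 0 of 95 tested list genes were called (11 at an unadjusted p under 0.05), where limma called 4.72% of all genes (3.04% higher, 1.67% lower) and 21.5% had an unadjusted p under 0.05. The authors' deposited table called 4 of them at rest, 3 higher and 1 lower. After running limma called 1 of 91, lower (14 at an unadjusted p under 0.05), where it called 3.73% of all genes (1.58% higher, 2.15% lower) and 19.9% had an unadjusted p under 0.05, and the authors' deposited table called 3. The list genes had a median log2 difference of -0.02 at rest and 0.01 after running, beside 0.011 and -0.001 over all tested genes. The limma count over all genes at rest was 434. Leaving out knockout libraries 1, 2 or 3 gave 82, 195 or 54, and leaving out wild-type libraries 1 or 2 gave 269 or 20. After running it was 337, and it lay between 70 and 103 whichever library was left out.

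Partners of HAT1 and histone chaperones gave 0 calls by limma and 0 in the authors' deposited table, with 0 of 5 at an unadjusted p under 0.05 in either condition. Rbbp7, the histone-binding subunit that pairs with HAT1, measured 46.0 ± 2.54 FPKM in HDAC3-KO and 41.0 ± 5.65 FPKM in wild type at rest (limma adjusted p = 0.467). Its relative Rbbp4 measured 23.9 to 26.0 FPKM in HDAC3-KO and 22.9 to 27.2 FPKM in wild type (limma adjusted p = 0.976). Asf1b, Chaf1a and Chaf1b, chaperones tied to DNA replication and named after their values were seen, were too low for the authors' test. Asf1b measured 1.91, 0.965 and 1.53 FPKM in HDAC3-KO at rest, against 0.918, 0.276 and 0.112 FPKM in wild type. After running it measured 0.509, 1.29 and 2.11 FPKM in HDAC3-KO, against 0, 0.108 and 0.319 FPKM in wild type, and the groups did not overlap in either condition. Chaf1a averaged 0.690 ± 0.315 FPKM in HDAC3-KO and 0.591 ± 0.317 FPKM in wild type at rest, and 0.642 ± 0.262 FPKM in HDAC3-KO and 0.325 ± 0.211 FPKM in wild type after running. Chaf1b averaged 0.186 ± 0.212 FPKM in HDAC3-KO and 0.273 ± 0.153 FPKM in wild type at rest, and 0.205 ± 0.165 FPKM in HDAC3-KO and 0.233 ± 0.221 FPKM in wild type after running, and both overlapped between genotypes in both conditions.

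In the SAGA and ATAC list, the complexes of GCN5 and PCAF, 0 of 21 tested genes were called at rest by limma or in the authors' deposited table (0 at an unadjusted p under 0.05) and 0 of 19 after running (1 at an unadjusted p under 0.05). Their median log2 differences were -0.05 and 0.03. The subunits of highest level, Taf10 and Taf9, measured 27.6 ± 2.37 FPKM in HDAC3-KO and 27.9 ± 4.04 FPKM in wild type, and 24.6 ± 3.03 FPKM in HDAC3-KO and 25.5 ± 3.21 FPKM in wild type, at rest (limma adjusted p = 0.983 and 0.865). The TIP60 complex had 0 of 17 called at rest (1 at an unadjusted p under 0.05) and 0 of 14 after running (3 at an unadjusted p under 0.05), and none in the authors' deposited table. Its chromodomain subunit Morf4l1 measured 36.9 ± 4.61 FPKM in HDAC3-KO and 44.1 ± 7.75 FPKM in wild type at rest (limma adjusted p = 0.403), and the related Morf4l2 measured 67.0 ± 3.20 FPKM in HDAC3-KO and 87.0 ± 6.35 FPKM in wild type after running (limma adjusted p = 0.111).

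Other acetyltransferases and the MYST complexes also gave 0 calls by limma. Of 15 other acetyltransferases, 2 had an unadjusted p under 0.05 at rest and 1 after running. Kat8, which acetylates histone H4 in the MSL and NSL complexes, measured 15.8 ± 0.843 FPKM in HDAC3-KO and 15.1 ± 3.01 FPKM in wild type at rest (limma adjusted p = 0.821). Elp3, the catalytic subunit of Elongator, measured 23.4 to 26.7 FPKM in HDAC3-KO and 18.9 to 21.7 FPKM in wild type (limma adjusted p = 0.182). Clock, a transcription factor of the circadian clock, was called higher in both conditions by the authors' deposited table (q = 0.00668 and 0.0463) but not by limma (adjusted p = 0.0563 and 0.097). It measured 13.5 ± 1.08 FPKM in HDAC3-KO and 9.71 ± 0.806 FPKM in wild type after running, and the groups did not overlap in either condition. Of the MYST complex list, 0 of 15 were called at rest and 0 of 16 after running (2 at an unadjusted p under 0.05 in each), and 0 in the authors' deposited table. Ogt, the O-GlcNAc transferase of the NSL complex, measured 45.5 ± 3.79 FPKM in HDAC3-KO and 42.4 ± 3.89 FPKM in wild type at rest (limma adjusted p = 0.653), and Kansl2 measured 21.2 ± 1.11 FPKM in HDAC3-KO and 19.8 ± 2.73 FPKM in wild type (limma adjusted p = 0.687).

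Among recruiters of p300 and CBP, 0 of 8 were called by limma at rest (2 at an unadjusted p under 0.05) and 0 of 7 after running (2 at an unadjusted p under 0.05). Cited2, which binds p300 and CBP, measured 12.6, 10.2 and 8.46 FPKM in HDAC3-KO at rest, against 12.5, 26.8 and 12.2 FPKM in wild type. The authors' deposited table called it lower (q = 0.00384), but only wild-type library 2 stood apart (limma adjusted p = 0.299). Hif1a measured 14.8 ± 3.04 FPKM in HDAC3-KO and 11.5 ± 0.804 FPKM in wild type at rest (limma adjusted p = 0.272).

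In the acetyl-CoA supply list 0 of 9 were called by limma in either condition, and 4 of 9 had an unadjusted p under 0.05 in each. The authors' deposited table called the acetyl-CoA synthetases Acss1 and Acss2 higher at rest (q = 0.00119 and 0.0252) and Acss1 higher after running (q = 0.0411). Acss1, of mitochondria, measured 11.5, 11.9 and 13.4 FPKM in HDAC3-KO at rest, against 9.68, 4.80 and 5.66 FPKM in wild type. Its groups did not overlap, although wild-type library 1 lay near the knockout values (limma adjusted p = 0.0818). Without that library limma called Acss1 (log2 difference 1.09, SE 0.13, adjusted p = 0.0209). Leaving out the wild-type library nearest the knockout values widens the difference by itself. With any other resting library left out, 0 list genes were called. Acss2, which makes acetyl-CoA outside mitochondria, measured 20.4 ± 5.33 FPKM in HDAC3-KO and 14.4 ± 1.02 FPKM in wild type (limma adjusted p = 0.199). Subunits of pyruvate dehydrogenase, which makes acetyl-CoA from pyruvate, were not called. After running Pdha1 measured 266 ± 9.66 FPKM in HDAC3-KO and 344 ± 9.89 FPKM in wild type (limma adjusted p = 0.0911). Dlat measured 66.4 ± 2.56 FPKM in HDAC3-KO and 85.5 ± 4.67 FPKM in wild type (limma adjusted p = 0.108). Pdhb measured 191 ± 23.9 FPKM in HDAC3-KO and 210.0 ± 6.39 FPKM in wild type (limma adjusted p = 0.559). Knockout libraries lay below wild type without overlap for Pdha1 and Dlat in both conditions, while those of Pdhb overlapped in both.

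Of the 7 acetyl-lysine readers, 0 were called at rest by limma or in the authors' deposited table (0 at an unadjusted p under 0.05), and 1 was called after running. Mllt3, a YEATS-domain protein that binds acetylated histone H3, fell to 15.8, 13.1 and 14.2 FPKM in HDAC3-KO libraries after running, against 21.5, 23.5 and 23.2 FPKM in wild type (log2 difference -0.63, SE 0.12, limma adjusted p = 0.0336). The groups did not overlap, and the authors' deposited table also called it lower (q = 0.00432). With any 1 library left out its limma adjusted p lay between 0.0571 and 0.115, above the threshold of 0.05. At rest Mllt3 measured 18.0 ± 3.58 FPKM in HDAC3-KO and 22.0 ± 2.40 FPKM in wild type (limma adjusted p = 0.351).

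**Figure D4:**
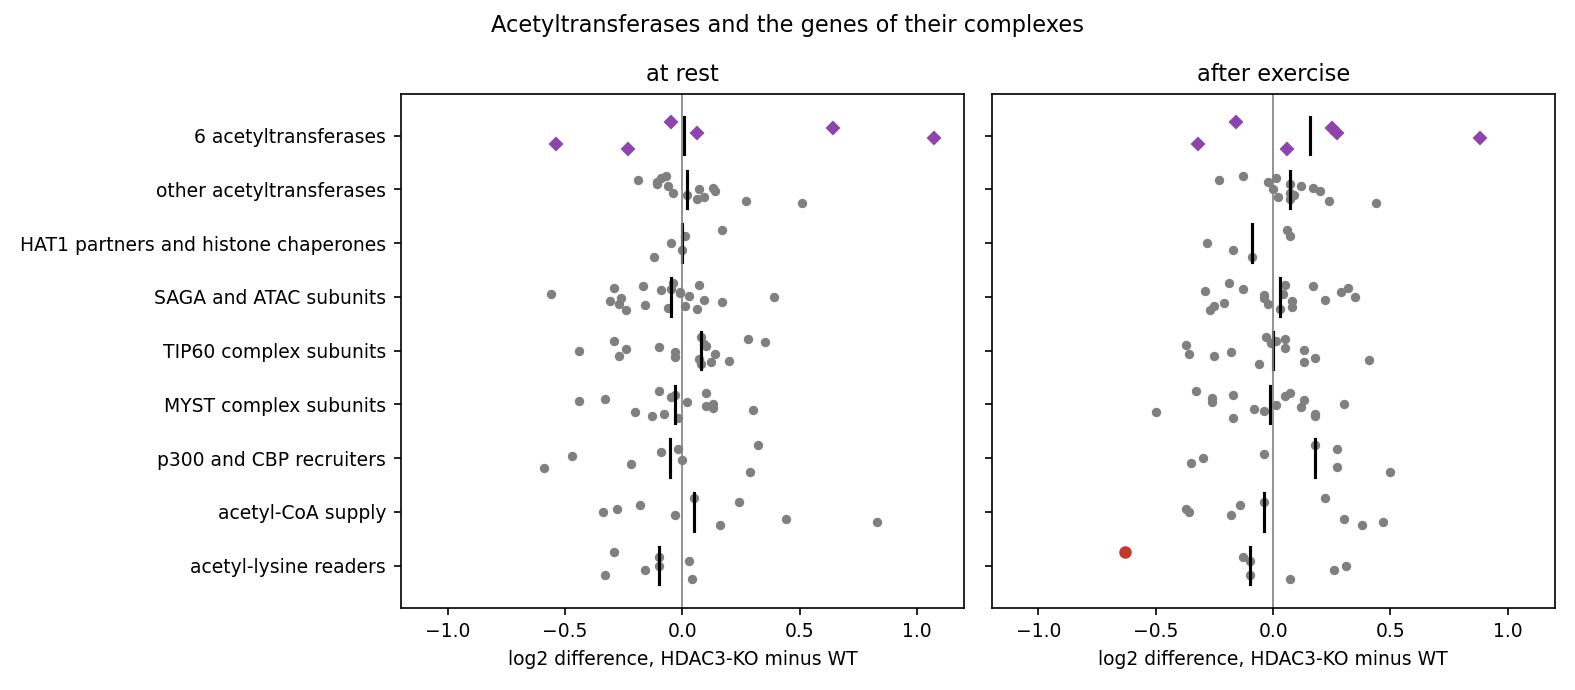
Log2 difference, HDAC3-KO minus wild type, of every tested gene of the acetylation machinery by list, at rest (left) and after exercise (right); diamonds are the 6 acetyltransferases, grey points list genes not called by limma, the red point is Mllt3 and black lines are list medians. Hat1, at 1.07 and 0.88, lay to the right of all list genes.

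Whether the knockout difference itself changed with running was tested as an interaction over the 12 libraries. limma called 0 of the 8854 genes tested in both tables (433 at an unadjusted p under 0.05). Of the 90 list genes among them 0 were called and 1 had an unadjusted p under 0.05, Jade1, a scaffold of MYST complexes (log2 value -0.34, SE 0.15, limma adjusted p = 0.923).

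Because HAT1 serves new histones, markers of cycling cells are given beside its values. The 15 listed summed to 50.7 to 57.6 FPKM in HDAC3-KO at rest, against 33.3 to 44.7 FPKM in wild type, and to 47.5 to 53.4 FPKM in HDAC3-KO after running, against 37.8 to 42.3 FPKM in wild type. Pcna, the DNA polymerase clamp, gave the highest value of the list and rose to 30.3 ± 3.58 FPKM in HDAC3-KO at rest, against 17.6 ± 2.27 FPKM in wild type (log2 difference 0.75, SE 0.13, limma adjusted p = 0.0251), and measured 26.1 ± 2.46 FPKM in HDAC3-KO and 23.2 ± 3.16 FPKM in wild type after running (limma adjusted p = 0.54). By limma 1 of 6 tested markers was called at rest (2 at an unadjusted p under 0.05). After running it called 0 of 5 (3 at an unadjusted p under 0.05). The authors' deposited table called 2 at rest (Pcna and Mcm2) and 3 after running (Mcm2, Mcm4 and Mcm7), each higher. Mcm2 measured 3.15 ± 0.36 FPKM in HDAC3-KO and 1.81 ± 0.524 FPKM in wild type at rest. After running Mcm2 measured 2.98 ± 0.675 FPKM in HDAC3-KO and 1.54 ± 0.0163 FPKM in wild type. Its groups did not overlap in either condition. Of the tested markers, 5 had a positive log2 difference and 1 a negative one at rest, and 4 and 1 after running. The proliferation markers Mki67 and Top2a were low outside the libraries that stood apart in neutrophil markers. Mki67 measured 0.171, 0.252 and 0.215 FPKM in HDAC3-KO at rest, against 0.225, 2.40 and 0.316 FPKM in wild type, and 0.447, 0.159 and 1.91 FPKM in HDAC3-KO after running, against 0.111, 0.167 and 0.134 FPKM in wild type. Top2a measured 0.144, 0.153 and 0.188 FPKM in HDAC3-KO at rest, against 0.286, 1.53 and 0.280 FPKM in wild type, and 0.564, 0.134 and 1.13 FPKM in HDAC3-KO after running, against 0.0439, 0.149 and 0.132 FPKM in wild type. The Top2a groups did not overlap at rest, with the knockout lower. Mcm3 stood apart after running, with the knockout higher (1.39, 1.76 and 2.40 FPKM, against 0.576, 0.839 and 0.991 FPKM). Mki67, Top2a and Mcm3 were outside the authors' test. In both Mki67 and Top2a the highest value of each table came from the library rich in neutrophil markers, and Ccnb1 was listed at 0 in all 3 knockout libraries at rest. The part of these markers in the Hat1 difference was not tested.

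Of markers of other cells, those of macrophages differed after running. The 8 listed summed to 67.2 to 104 FPKM in HDAC3-KO after running, against 35.4 to 55.2 FPKM in wild type, and to 47.6 to 77.0 FPKM in HDAC3-KO at rest, against 65.8 to 75.2 FPKM in wild type. After running limma called 2 of their 7 tested genes, both higher: Mrc1 (7.10 ± 1.21 FPKM in HDAC3-KO and 2.80 ± 0.200 FPKM in wild type, adjusted p = 0.0144) and Cd68 (4.26 ± 1.45 FPKM in HDAC3-KO and 0.888 ± 0.545 FPKM in wild type, adjusted p = 0.0372). The sums of satellite cell, endothelial, fibroblast and adipocyte markers overlapped between genotypes in both tables. Within each list the tested members did not all go 1 way, except for the adipocyte list at rest. There all 4 tested genes had a negative log2 difference, and 0 were called by limma or in the authors' deposited table. Most of the satellite sum was Sdc4, a surface proteoglycan, at 26.2 ± 8.25 FPKM in HDAC3-KO and 15.1 ± 2.11 FPKM in wild type at rest, and 48.6 ± 9.91 FPKM in HDAC3-KO and 28.6 ± 8.61 FPKM in wild type after running. The cadherin Cdh15 measured 1.72 ± 0.422 FPKM in HDAC3-KO and 3.45 ± 1.19 FPKM in wild type at rest, and 1.87 ± 0.499 FPKM in HDAC3-KO and 3.58 ± 1.02 FPKM in wild type after running. Pax7, the defining satellite cell factor, stayed under 0.1 FPKM in each knockout library and lay between 0.108 and 0.383 FPKM in the wild-type libraries. The authors' deposited table called Sdc4 higher and Cdh15 lower in both conditions, Chodl lower after running (q = 0.00762), and the fibroblast collagen genes Col1a1 and Col1a2 lower at rest (q = 0.00119 for each). Over all genes it called 5.9% higher and 4.94% lower at rest, and 4.66% higher and 4.91% lower after running. limma called 0 of the 3 tested satellite markers in either condition (3 at an unadjusted p under 0.05 in each) and 0 of 7 fibroblast markers (1 at rest and 0 after running at an unadjusted p under 0.05). The part of these cells in the member values was not tested.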

How the data were processed

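The 12 RNA-seq libraries were used; 4 GRO-seq samples were not analysed here. TopHat2, Bowtie, Cuffdiff, HOMER and the build mm9 are named in the submitters' processing notes. Settings, annotation and strand are not given in the sources used here. The authors deposited FPKM per library, with their own p-values and q-values for the genotype comparison, in a rest table and an exercise table. Columns were assigned from the genotype and number in their names, and 0 library columns remained unassigned. A p of exactly 1 marks rows outside the authors' test: over the remaining rows a Benjamini-Hochberg adjustment came within 0.00011 of the deposited q-values. This left 9204 genes at rest and 9037 after exercise, with 27 rows of date-like names in the exercise table left out; among them the higher group's mean was never below 1.94 FPKM.

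Differences were fitted within each table by limma 3.58.1 (R 4.3.3) on log2(FPKM + 1), with a variance trend, and its two-sided p-values were adjusted by Benjamini-Hochberg over every fitted gene. A gene is called at an adjusted p of 0.05 or less; only called genes "rose" or "fell". This scale makes changes of low genes look smaller. With 3 libraries a side the exact permutation test has a smallest two-sided p of 0.1, so it was left out. The fit was tested on simulated data. Among 8946 genes at 1 FPKM or more in every library, 3 values were identical between libraries, over all pairs of libraries: Hdac3 (wild-type library 2 at rest and wild-type library 1 after exercise), Mllt3 (knockout and wild-type libraries 3 at rest) and Fut10.

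The members, 8 pathway lists and 8 marker lists were chosen with earlier results of these data known. Named by rule were the members, Hdac3, up to 4 called genes of a list or otherwise its 2 of highest FPKM, the 5 genes closest to Hat1 and the 2 closest to each other member in pattern, and neighbours. Any other gene was named after its values were seen. Neighbours and promoters are from RefSeq on GRCm38.p6, where all 6 members matched. Alternatives were other pseudocounts, filters and scaling, no trend, a replicate block, each library left out and the authors' q.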

Additional observations from a re-analysis of the deposited data

How the results depend on the processing

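The member differences moved by less than 1 SD between libraries in 155 of 156 alternative fits. Most of these fits could not have given a larger shift, so the count does not show that the differences are robust. Filters, the variance trend and the replicate block leave the difference itself unchanged. Without 1 library of a group, the difference cannot shift by 1 SD pooled over both groups. Other pseudocounts and scaling could have moved it further. With a pseudocount of 0.1 the Ep300 difference at rest was -0.62. Leaving out 1 library gave Hat1 differences of 1.02 to 1.14 at rest and 0.81 to 0.97 after exercise, and Ep300 differences of -0.59 to -0.51 and -0.38 to -0.28. Those of Kat2b were 0.59 to 0.72 and 0.13 to 0.35. The signs of Kat2a and Kat5 at rest and of Crebbp after exercise depended on the library left out.

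Over all genes limma called 98 at rest and 53 after exercise with no filter on low values, and the authors' q called 998 and 865. Leaving out 1 library gave 20 to 292 calls at rest and 70 to 103 after exercise. The pathway genes called numbered 0 to 1 at rest and 0 to 0 after exercise with 1 library left out, 0 after exercise with no filter, and 4 at rest and 3 after exercise by the authors' q. The causes of these shifts were not tested.

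Deviations of same-numbered libraries correlated at -0.33 to 0.05 across both tables, and not every library correlated best with its own number. Whether replicate numbers pair the samples is not known, and deviations from means of 3 libraries cannot decide it. With the replicate number as a block limma called 52 genes at rest and 170 after exercise, and 0 pathway genes in either; Mllt3 had an adjusted p of 0.0857. The interaction gave 0 pathway genes under each alternative run, the block included. Depth was unknown and 3 libraries per group limit the precision.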
